A study of Mus musculus with 3 samples.

Results

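The mitochondrial genome of the mouse carries 37 genes, and all of them were taken from the deposited tables as the genes placed on chromosome M, out of 50600 annotated genes in all. They comprise 13 protein-coding genes, 2 ribosomal RNA (rRNA) genes and 22 transfer RNA (tRNA) genes. The rule used no measured value, though earlier results of these data were known when the genes were chosen. The samples were primary regulatory T cells (Treg, suppressive T cells marked by the transcription factor Foxp3) of mouse strain C57BL/6NJ, activated for 16 hours per the file headers, sequenced in 3 libraries numbered biological replicates 2, 3 and 4. The libraries form 1 group, so conditions could not be compared, and the comparisons below are between genes within a library and between libraries. The labels give all 3 the same donor identifier, with sex not collected and age unknown, and do not say whether the cells came from separate animals, so SDs and p-values measure only the spread between these libraries. The assay label names total RNA, whereas the linked library protocol is named for polyadenylated RNA.

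Mitochondrial DNA encodes core subunits of the respiratory chain complexes I, III and IV and of the ATP synthase (complex V), which together make ATP by oxidative phosphorylation, with the rRNAs and tRNAs needed to translate them inside the organelle. Both strands are transcribed into long precursors that are cut, mostly at the tRNAs that separate the other genes, and most of the resulting mRNAs receive a short poly(A) tail. T cells build up mitochondria when they are activated, and Treg cells are known to rely on oxidative phosphorylation. Copies of mitochondrial DNA have also been inserted into nuclear chromosomes during evolution, and a sequencing fragment that aligns equally well to both places has no unique origin.

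Replicates 2, 3 and 4 held 41222058, 47665060 and 99097524 assigned fragments. The Treg label was checked on 7 marker genes, all at 1 TPM or more in every library (TPM, a count scaled for gene length and library total), with Foxp3 at 80.9 ± 3.97 TPM (SD, n = 3). Of 15 markers of other cells, 2 (Pecam1 and Epcam) reached 1 TPM in every library, the list summed to 7.78 to 9.15 TPM per library against 2329 to 2379 TPM for the Treg markers, and Lyz2, Csf1r, S100a8, Hbb-bs, Hba-a1 and Pf4 had no fragment. The libraries stood apart in sex-linked genes. Xist, the RNA of the inactive X chromosome, had 27625, 85 and 18895 fragments in replicates 2, 3 and 4, and the Y-linked gene Ddx3y had 8, 2932 and 4314. Replicate 2 thus had Xist with almost no Ddx3y, replicate 3 the reverse, and replicate 4 both, so the sex of the cells differed between libraries. The spread between libraries therefore includes a difference in the cells sampled and is not technical alone.

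A run of neighbouring mitochondrial genes had almost no counted fragments, and the same run has a near-identical copy on chromosome 1. In genome order its mRNA genes were mt-Co2, mt-Atp8, mt-Atp6, mt-Co3, mt-Nd3 and mt-Nd4l. The tRNA genes mt-Ts1, mt-Td, mt-Tk, mt-Tg and mt-Tr lie among them by position, but no annotated transcript of the copy covers them, and tRNA genes outside the run were mostly low as well, with 4 of 17 at 1 TPM in every library and 5 without a fragment. These 11 genes together took 29, 18 and 42 fragments in replicates 2, 3 and 4, or 0.0101%, 0.00666% and 0.0061% of the mitochondrial fragments (95% Wilson intervals 0.00703% to 0.0145%, 0.00421% to 0.0105% and 0.00451% to 0.00825%, which cover counting error only). The 24 genes outside the run took 55.3%, 54.2% and 52.4%, and the 2 genes that reach into it, mt-Co1 and mt-Nd4, took 44.7%, 45.8% and 47.6%.

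The copy was found by aligning the 37 mitochondrial transcripts to all other GENCODE M21 transcripts. The 7 pseudogenes found on the minus strand of chromosome 1 matched chrM:6390-11042 over chr1:24611535-24616188 (mm10). Over 4140 aligned bases they differed from the mitochondrial genes at 2. Both sides are annotated reference sequences, and the sequence of the strain sampled was not analysed. Their chromosome 1 and chromosome M positions add to 24622578 in 5 of the 7 pseudogenes and to 24622577 in the other 2, so they lie in the order and spacing of the mitochondrial genes. Gm28661, for instance, matched mt-Co2 over 681 bases without a mismatch, Gm28437 matched mt-Co3 over 783, and Gm10925 matched mt-Atp6 over 678.

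The stretches that follow show how close the copies are, each read 5′ to 3′ along the mitochondrial sense strand. The differences are T3C in mt-Nd3 and A1066T in mt-Co1 (the mitochondrial base, its position counted from 1 at the first base of the gene, then the base of the copy), and capitals mark them. The mt-Co2 stretch, bases 271 to 331, has none.
mt-Nd3: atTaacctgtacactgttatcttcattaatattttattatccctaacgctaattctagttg
Gm28438: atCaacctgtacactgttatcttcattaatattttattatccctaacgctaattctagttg
mt-Co1: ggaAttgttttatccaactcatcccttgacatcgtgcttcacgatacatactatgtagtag
Gm29216: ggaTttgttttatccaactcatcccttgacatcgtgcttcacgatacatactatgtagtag
mt-Co2: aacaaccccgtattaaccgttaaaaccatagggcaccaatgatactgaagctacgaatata
Gm28661: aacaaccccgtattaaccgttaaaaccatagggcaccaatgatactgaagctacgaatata

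Every 50-base window of mt-Co2 occurred unchanged in a nuclear transcript, as did 99.5% of the windows of mt-Atp6, 99.9% of mt-Co3, 98.0% of mt-Nd3 and 98.8% of mt-Nd4l. For mt-Co1 the share was 51.1%, because its last 483 bases are in the chromosome 1 copy and another copy on chromosome 2, Gm13340, matches the whole gene at 97.6% identity. For mt-Nd4, whose first 876 bases are in the copy, it was 62.2%. The shares were 8.19% for mt-Nd2 and 7.61% for mt-Nd5, and no window was shared by mt-Nd1, mt-Cytb, mt-Nd6, mt-Rnr1 or mt-Rnr2. mt-Atp8 and the 5 tRNA genes lie in the copied stretch by position, but none of their windows was found in an annotated transcript, so their sequence in the copy was not compared. The counting command had no option for fragments that align to several places, and the counter leaves such fragments out by default. The part of that rule in the low counts was not tested, since alignments were not analysed here. For these 11 genes, little RNA and RNA whose fragments were left uncounted cannot be told apart.

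Fragments placed uniquely on the copies were few. The 7 chromosome 1 pseudogenes had 28, 31 and 72 fragments in replicates 2, 3 and 4. Of 16 annotated nuclear copies of at least 100 aligned bases at 90% identity or more, 4 had 30 fragments or more in all. These were Gm13340 with 27, 68 and 85, Gm13341 (a copy of mt-Co2 on chromosome 2) with 11, 15 and 23, Gm28437 with 8, 10 and 18 and Gm10925 with 12, 7 and 12. All 16 together had 69, 118 and 199, against 287232, 270222 and 688399 fragments of the mitochondrial genes.

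**Figure D1:**
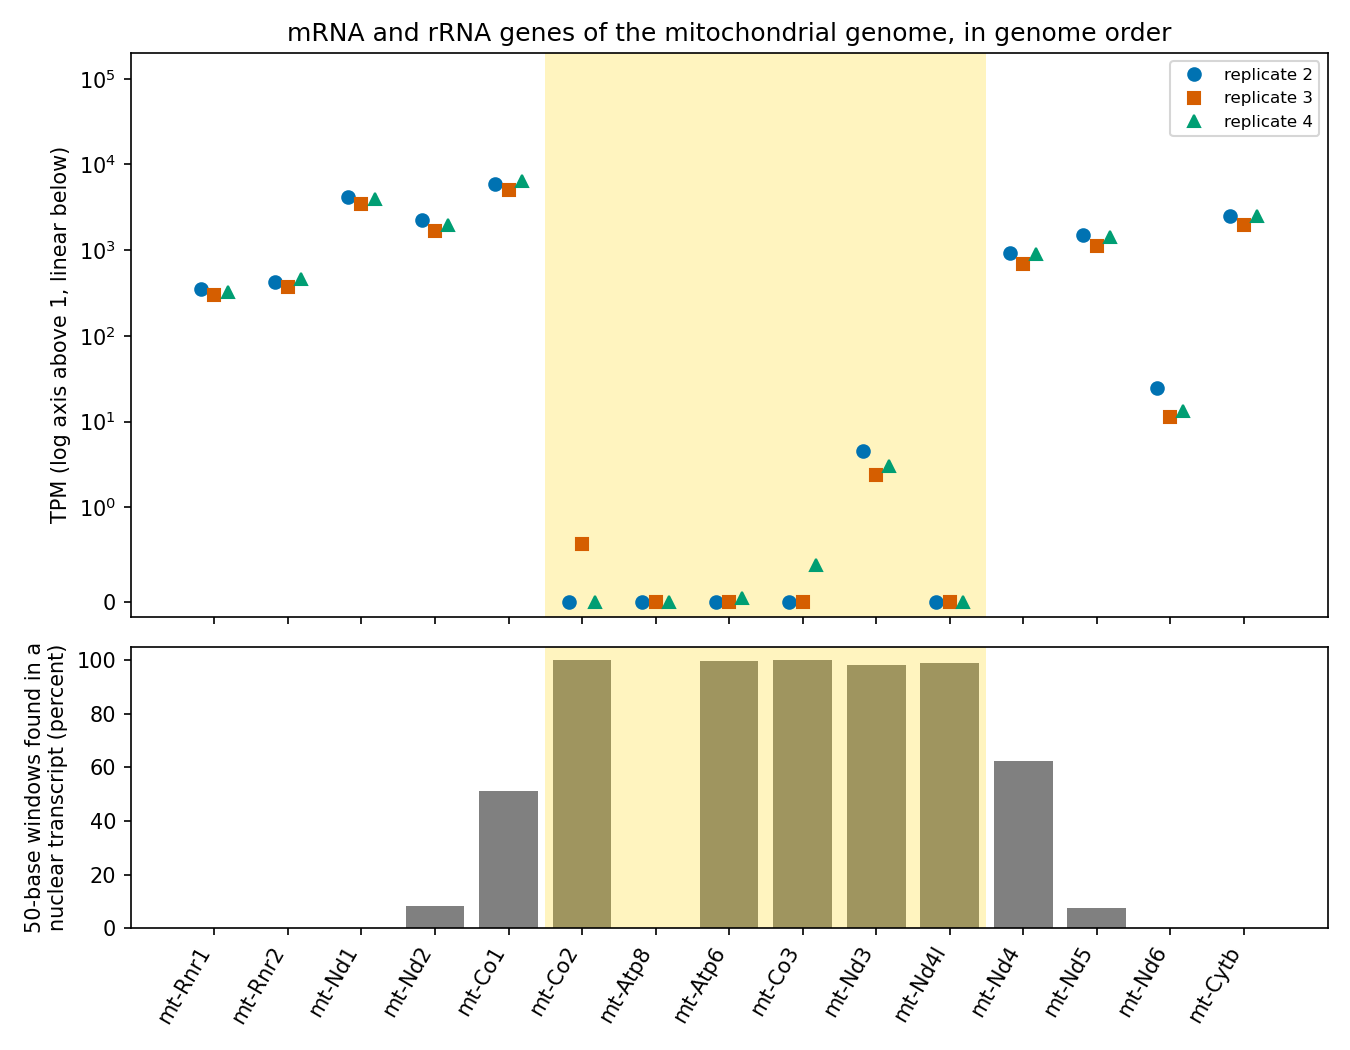
Upper panel, TPM of the 13 protein-coding and 2 rRNA genes in replicates 2, 3 and 4 (points), in genome order, on an axis that is logarithmic above 1 TPM and linear below; lower panel, the percent of each gene's 50-base windows that occur in a nuclear transcript. In the shaded run from mt-Co2 to mt-Nd4l no gene exceeds 4.47 TPM, and the shared windows are 98.0% or more except for mt-Atp8, whose copy has no annotated transcript; mt-Nd1 stands at 3446 to 4177 TPM with no shared window.

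The mitochondrial genes as a whole took 0.697%, 0.567% and 0.695% of all fragments in replicates 2, 3 and 4, or 0.653 ± 0.0744% (SD, n = 3). Protein-coding genes held 95.5 ± 0.158% of the mitochondrial fragments, rRNA genes 4.45 ± 0.155% and tRNA genes 0.0706 ± 0.00528%. In all, 14 of the 37 genes reached 1 TPM in every library, made up of 8 of 13 mRNA genes, both rRNA genes and 4 of 22 tRNA genes. The same held for 22.3% of all genes and 45.6% of protein-coding genes. Outside the copied run, 5 of 5 mRNA genes reached 1 TPM in every library, and inside it 1 of 6 did.

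Complex I takes electrons from NADH, and 7 of its subunits are mitochondrial genes. mt-Nd1 (chrM:2751-3707, plus strand) was the most abundant of them, with 4177, 3446 and 3976 TPM in replicates 2, 3 and 4. mt-Nd2 (chrM:3914-4951) had 2258, 1656 and 1957 TPM. mt-Nd5 (chrM:11742-13565) had 1506, 1133 and 1431 TPM. The 3 genes kept that order in each library, and their ranges did not overlap. mt-Nd4 (chrM:10167-11544) had 921, 691 and 906 TPM over its whole length. All its fragments were also divided by the 502 windows of 50 bases that no nuclear transcript shares. This gave 2284 ± 347 TPM (SD, n = 3), against 2218 ± 340 for mt-Nd2 on the same scale, a difference smaller than the spread between libraries. Fragments were not counted by window and read length was not given, so values on that scale may be too high, which was not tested. mt-Nd3 (chrM:9459-9806) had 19, 12 and 31 fragments, or 4.47, 2.41 and 3.05 TPM. mt-Nd4l (chrM:9877-10173), which overlaps mt-Nd4 by 7 bases on the same strand, had no fragment in any library, where 3 fragments would make at most 0.828 TPM.

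mt-Nd6 (chrM:13552-14070) encodes the remaining complex I subunit and is the only protein-coding gene on the minus strand. It is also known as the mitochondrial mRNA that lacks a stable poly(A) tail in mammals. It had 154, 84 and 199 fragments, or 24.3, 11.3 and 13.1 TPM in replicates 2, 3 and 4, and replicate 2 stood above the other libraries. Its log2(TPM + 1) was below the median of the 12 other mRNA genes by 1.86 ± 0.32 (difference -1.86, SD, n = 3; exact two-sided sign-flip permutation p = 0.25, the smallest that 3 libraries allow). Against the 6 mRNA genes that are not wholly inside the copied run the difference was -7.01 ± 0.40 (SD). No window of mt-Nd6 was shared with a nuclear transcript.

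Complex III and complex IV pass the electrons on to oxygen. mt-Cytb (chrM:14145-15288), cytochrome b of complex III, had 2522, 1957 and 2471 TPM. It was higher than mt-Nd2 in each library, but the ranges of the 2 genes overlapped. mt-Co1 (chrM:5328-6872), the catalytic subunit of complex IV, had 5986, 4975 and 6449 TPM and stood highest of all 37 genes in each library. It ranked 9 among the 50600 genes by mean TPM, with mt-Nd1 at 13, mt-Cytb at 30, mt-Nd2 at 39 and mt-Nd5 at 73. Per unshared 50-base window, mt-Co1 came to 12159 ± 1566 TPM, and per unshared 100-base window to 8915 ± 1151 (SD, n = 3), since the windows found in nuclear copies drop out of its length. All its fragments were kept in both, so these values depend on the window length chosen and may be too high. mt-Co2 (chrM:7013-7696), which binds cytochrome c, had 6 fragments, all in replicate 3, and mt-Co3 (chrM:8607-9390) had 9, all in replicate 4.

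The median of the 3 complex IV mRNAs was therefore below that of the 7 complex I mRNAs, by -9.31 ± 0.55 on the log2(TPM + 1) scale (SD, n = 3; exact two-sided sign-flip permutation p = 0.25, the smallest possible). Without the genes wholly inside the copied run, mt-Co1 alone stood above the median of the 5 remaining complex I genes, by 2.10 ± 0.10 (SD). The direction of that comparison thus depended on the 2 complex IV genes that the copy contains.

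Complex V, the ATP synthase, takes both of its mitochondrial subunits from inside the copied run. mt-Atp6 (chrM:7927-8607), part of the proton channel, had 1 fragment, in replicate 4. mt-Atp8 (chrM:7766-7969) had none, where 3 fragments would make at most 1.20 TPM. The reading frames of both genes overlap, and 43 of the 204 bases of mt-Atp8 also belong to mt-Atp6, as the capitals show.
mt-Atp8: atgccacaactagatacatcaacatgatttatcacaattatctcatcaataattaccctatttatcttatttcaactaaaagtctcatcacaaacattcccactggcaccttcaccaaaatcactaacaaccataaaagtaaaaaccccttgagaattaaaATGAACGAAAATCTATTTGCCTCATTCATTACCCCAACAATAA
A fragment that touches both genes is left out by the default of the counter as well, so for mt-Atp8 the overlap and the nuclear copy cannot be told apart.

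The 2 rRNAs form the cores of the mitochondrial ribosome's subunits. mt-Rnr2 (chrM:1094-2675), the 16S rRNA of the large subunit, had 431, 370 and 459 TPM in replicates 2, 3 and 4. mt-Rnr1 (chrM:70-1024), the 12S rRNA of the small subunit, had 349, 298 and 329 TPM. mt-Rnr2 was higher in each library, by 0.37 ± 0.10 on the log2(TPM + 1) scale (SD, n = 3; exact two-sided sign-flip permutation p = 0.25, the smallest possible), and the ranges did not overlap. Both stood below mt-Nd4, the lowest of the mRNA genes on that strand that lie outside or only partly inside the copied run, in each library. The labels leave unclear whether RNA was selected by poly(A) tail or depleted of rRNA, so these levels do not give the rRNA content of the mitochondria.

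The tRNAs were scarce in counts. The counter by default also leaves out a fragment that touches a tRNA gene and its neighbour. The part of that rule was not tested, so these counts do not give tRNA levels. Of 22 genes, 4 had 30 fragments or more in all, 10 had fewer, with 64 fragments between them, and 8 had none. The plus strand carries 14 of the tRNA genes and all 4 of the abundant ones. mt-Tl1, the leucine tRNA between mt-Rnr2 and mt-Nd1 (chrM:2676-2750), had 98, 113 and 278 fragments, or 107, 105 and 127 TPM. mt-Tw (tryptophan; chrM:4950-5016) had 48.9, 38.5 and 43.4 TPM. mt-Tm (methionine; chrM:3845-3913) had 9.50, 10.1 and 12.4 TPM. mt-Tt (threonine; chrM:15289-15355) had 15, 32 and 92 fragments, or 18.3, 33.3 and 47.0 TPM in replicates 2, 3 and 4, so that the libraries differed more for it than for the other 3. The highest and the most variable of the 4 are shown whole, on the plus strand.
mt-Tl1: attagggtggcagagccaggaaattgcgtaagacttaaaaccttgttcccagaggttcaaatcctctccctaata
mt-Tt: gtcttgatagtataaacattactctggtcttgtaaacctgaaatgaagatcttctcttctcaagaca

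All 4 abundant tRNA genes adjoin a protein-coding gene on their strand with no base between them, mt-Tl1 and mt-Tm before mt-Nd1 and mt-Nd2, and mt-Tw and mt-Tt after mt-Nd2 and mt-Cytb. Of the 14 plus-strand tRNA genes, 8 adjoin an mRNA or rRNA gene in this way, and the other 4 of these 8 had fewer than 30 fragments (mt-Ti 9, mt-Tg 10, mt-Tv 2 and mt-Tl2 none). None of the 6 with a gap reached 30, but 3 of those 6 (mt-Td, mt-Tk and mt-Tr) lie inside the copied run, as does mt-Tg among the 8. The gap is only 1 base for mt-Tf, mt-Td, mt-Tk, mt-Tr and mt-Th, and 68 bases for mt-Ts2, so the groups differ little in spacing. The 8 minus-strand tRNA genes together had 15, 0 and 27 fragments in replicates 2, 3 and 4, led by mt-Tp (proline) with 3, 0 and 13 and mt-Tq (glutamine) with 4, 0 and 6. For genes this short, 3 fragments make 3.28 to 4.17 TPM in replicate 2, the shallowest library, so the 18 tRNA genes with fewer than 30 fragments rest on a few fragments or none.

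**Figure D2:**
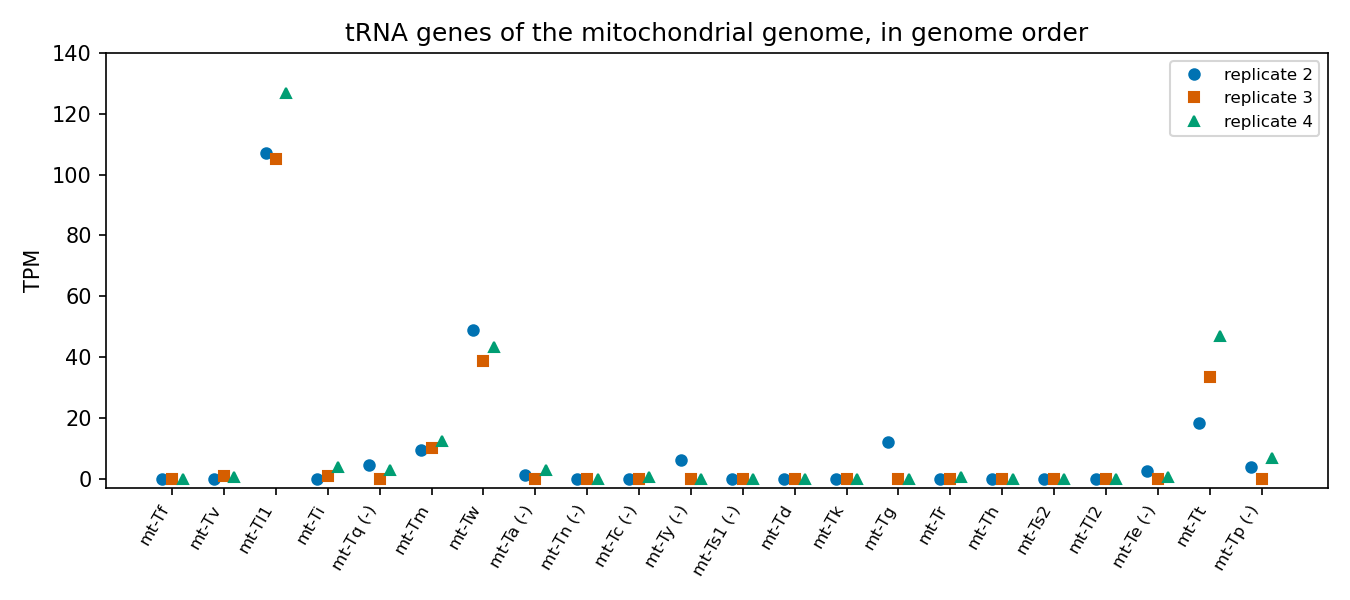
TPM of the 22 tRNA genes in replicates 2, 3 and 4 (points), in genome order, with (-) after the name of genes on the minus strand. mt-Tl1 stands apart from the rest in all 3 libraries, at up to 127 TPM, mt-Tw, mt-Tt and mt-Tm lie between 9.50 and 48.9 TPM, and the other 18 rest on at most 16 fragments each.

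Between libraries, the abundant mitochondrial transcripts moved together and were lowest in replicate 3. CPM here is a count scaled to the effective library size and not to gene length, and a chi-square test of equal rates was run on the 13688 genes with 30 fragments or more in all, of which 14 were mitochondrial. All 8 mitochondrial genes with 1000 fragments or more were lowest in replicate 3, as were 31.0% of all genes with that many. Replicate 3 was singled out after the mitochondrial share of fragments was seen to be lowest there (0.567%). These genes enter that share, so the count is a description and not a test. Among the 14 tested it was 11, and 34.2% of all genes tested. The exceptions were mt-Tl1, mt-Tm and mt-Tt, which were lowest in replicate 2.

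For the 8 abundant genes, log2 CPM minus its mean over the libraries was 0.02 to 0.20 in replicate 2, -0.24 to -0.10 in replicate 3 and 0.01 to 0.16 in replicate 4. mt-Nd4 spread widest below the mean, at -0.24 in replicate 3. Within the mitochondrial fragments the most abundant genes kept their order. mt-Co1 made up 39.3%, 40.8% and 42.3% of the mitochondrial fragments in replicates 2, 3 and 4, mt-Nd1 17.0%, 17.5% and 16.2%, and mt-Cytb 11.9% to 12.3%.

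Replicate 3 was also the library with the least Xist, 0.331 TPM, against 126 and 36.1 TPM in replicates 2 and 4. The part of that difference between the cells in the mitochondrial levels was not tested. With 1 group and 3 libraries, the mitochondrial difference has no further replicate check, and the chi-square test rests on counting error alone.

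At an adjusted p under 0.05 (chi-square test, Benjamini-Hochberg over all 13688 genes) with the highest library at 2 times the lowest or more in CPM, 2 of the 14 tested members were called, against 11.0% of all genes tested. mt-Nd6 had a ratio of 2.09 (adjusted p = 1.5e-09), with 3.70 CPM in replicate 2, 1.77 in replicate 3 and 2.02 in replicate 4, and 3.24% of all genes tested were likewise called and highest in replicate 2. mt-Tt had a ratio of 2.59 (adjusted p = 0.00242) and ran the other way, with 0.360, 0.675 and 0.933 CPM in replicates 2, 3 and 4. Both calls rested on replicate 2. Without it the ratios were 1.14 and 1.38 (adjusted p = 0.425 and 0.187). mt-Nd6 also lost its call at that ratio without replicate 3 (ratio 1.84), and mt-Tt without replicate 4 (ratio 1.87, adjusted p = 0.073).

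RNAs encoded in the nucleus that lack a poly(A) tail, chosen after these values were seen, differed among themselves in which library was highest. Rpph1, the RNA of ribonuclease P, had 174, 276 and 216 TPM in replicates 2, 3 and 4. The nuclear RNA Malat1 had 44.1, 26.4 and 55.1 TPM, and Rmrp, the RNA of ribonuclease MRP, had 2.12, 3.35 and 4.67 TPM. The Rmrp values rest on 7, 13 and 37 fragments, and it was not called between libraries (adjusted p = 0.145, chi-square test). The part of library preparation in the mt-Nd6 difference was not tested.

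With the highest library at least 25% above the lowest, 6 of the 14 were called, against 27.5% of all genes tested. The 6 were mt-Nd2 (ratio 1.32), mt-Nd4 (1.29), mt-Nd5 (1.29), mt-Co1 (1.27), mt-Nd6 and mt-Tt. Of these, 5 were lowest in replicate 3, mt-Tt being the exception, and 11.8% of all genes tested were both called and lowest in that library. mt-Cytb, at a ratio of 1.2496, lay just under that 25% limit. The median ratio was 1.26 over the 8 abundant members and 1.13 over the 9093 genes with 1000 fragments or more. mt-Nd2 was highest in replicate 2 and mt-Co1 in replicate 4. Without replicate 3, of the 6 only mt-Nd6 and mt-Tt were called at 25%, and the ratios of mt-Nd4, mt-Nd5 and mt-Co1 were 1.01, 1.04 and 1.08. Without replicate 2 only mt-Co1 and mt-Nd4 were called.

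**Figure D3:**
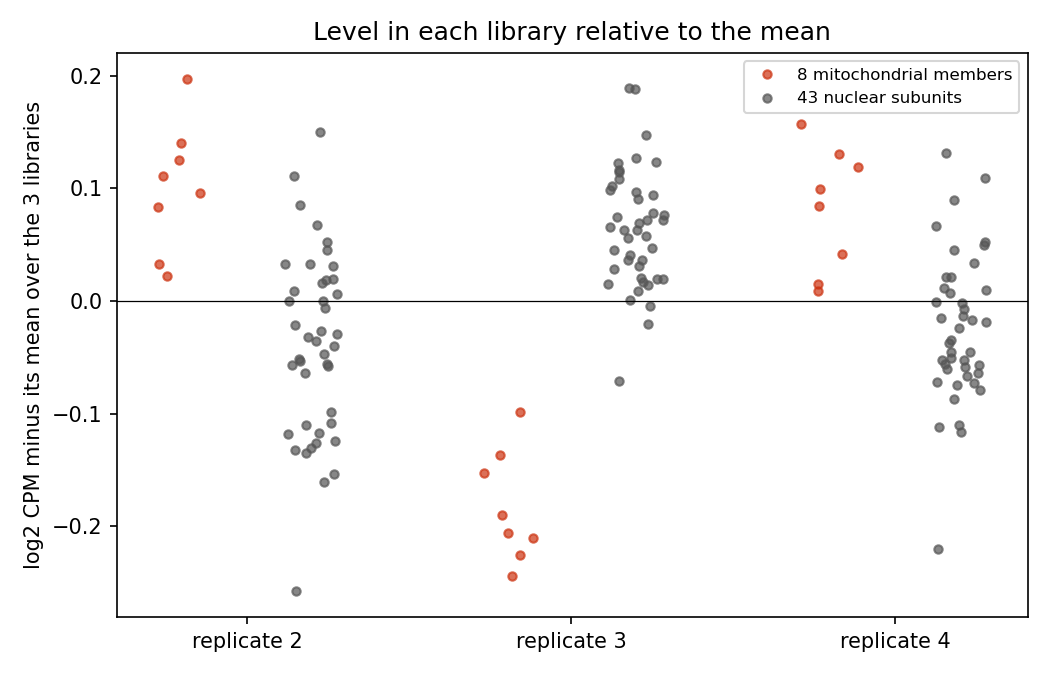
Log2 CPM minus its mean over the 3 libraries, for the 8 mitochondrial genes with 1000 fragments or more (red, left) and 43 nuclear subunits of complexes I, III, IV and V (grey, right) in each library; each point is a gene. In replicate 3 the mitochondrial genes lie between -0.24 and -0.10, and the nuclear subunits between -0.07 and 0.19.

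The 43 nuclear genes listed for the same complexes (for complex I, the core ones) were seldom lowest in replicate 3. They are called nuclear subunits here and in the figures, although they include Atpif1, an inhibitor of the ATP synthase, and Cox7a2l, which helps to join complexes III and IV. Of 43 such genes, 2 were lowest in replicate 3, against 34.2% of all genes tested, and 30 were highest there, against 33.4% of all genes tested. The median relative level in that library was -0.20 for the 8 mitochondrial genes and 0.06 for the nuclear subunits. At 25%, 3 of the 43 were called, Atpif1 among them (ratio 1.33), against 27.5% of all genes tested. At a ratio of 2 none was, against 11.0%. The difference between the 2 sets was not tested, since genes are not replicates.

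Within complexes, mitochondrial mRNAs not wholly inside the copied run were higher in TPM than the nuclear subunits listed here, apart from mt-Nd6. TPM divides by the deposited length, which covers all annotated exons of a gene and can exceed its main mRNA. The default that leaves out fragments aligning to several places applies to nuclear genes as well, and copies of the nuclear genes were not sought. Nuclear levels, their order and their distance from the mitochondrial genes, here and below, may be biased by both, which was not tested. For complex I the list holds the 7 nuclear core subunits, and its accessory subunits were not analysed here. In complex I, 4 of 7 mitochondrial genes (mt-Nd1, mt-Nd2, mt-Nd5 and mt-Nd4) exceeded the highest of the 7 nuclear core genes, Ndufs8, at 303 ± 10.4 TPM (SD, n = 3). The other nuclear core genes ran down to Ndufs3 at 88.2 ± 5.52 and Ndufs1 at 55.5 ± 1.96 TPM. In complex III, mt-Cytb at 2317 ± 313 TPM exceeded all 9 nuclear genes listed, of which Cyc1 (cytochrome c1) at 795 ± 57.7 was highest. In complex IV, mt-Co1 at 5803 ± 753 TPM exceeded all 11 listed, led by Cox8a at 1003 ± 81.9. In complex V, both mitochondrial genes lie inside the copied run, and the 16 nuclear genes ran from Atp5b at 1564 ± 37.4 TPM to Atp5l at 4.52 ± 0.0875.

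Over all 13 mitochondrial mRNAs, counts near 0 included, the median was 16.2 ± 7.05 TPM, against 257 ± 12.4 TPM for the 43 nuclear subunits, a log2(TPM + 1) difference of -3.98 ± 0.62 (SD, n = 3; exact two-sided sign-flip permutation p = 0.25, the smallest possible). In each library the median of the 13 was the level of mt-Nd6, so the difference is that of this gene and not of the mRNAs as a set. Without the 6 mRNA genes inside the copied run the difference was 2.91 ± 0.29 (SD), in the other direction. The median mRNA of all 13, again mt-Nd6, exceeded the median tRNA by 3.84 ± 0.74 (SD, n = 3, exact two-sided sign-flip permutation p = 0.25 for all 35 genes). Without the genes inside the run the median mRNA exceeded the median tRNA by 10.35 ± 0.34 (SD). Fragments that touch a tRNA gene and its neighbour are left out by the default of the counter, so that difference is one of counts and not of RNA levels.

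**Figure D4:**
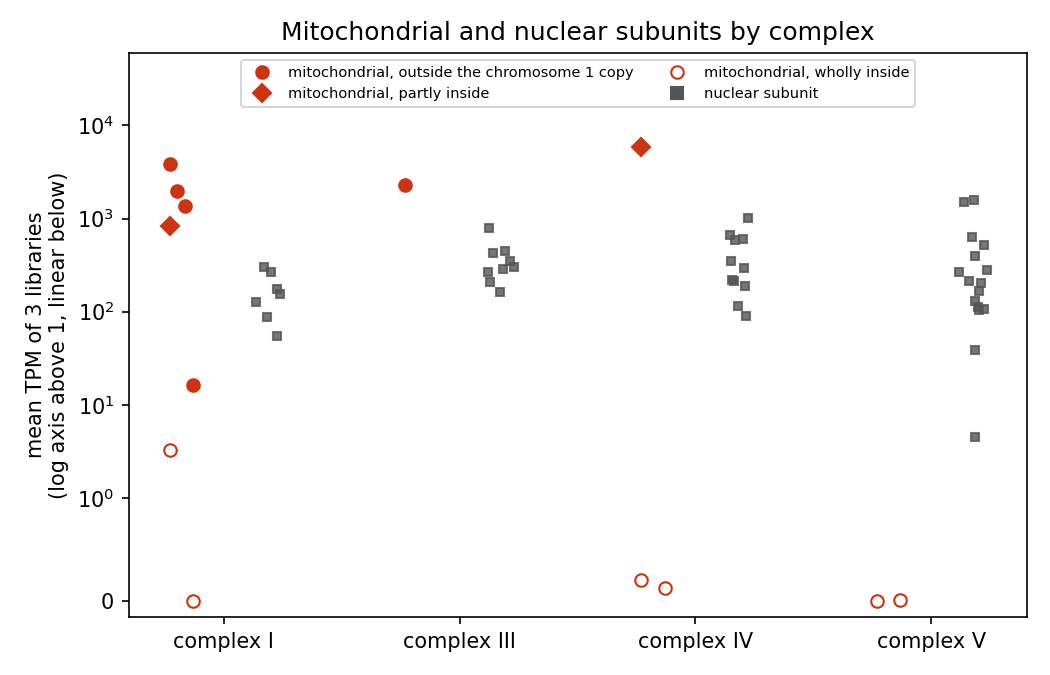
Mean TPM over 3 libraries of each mitochondrial subunit gene (red, left of each pair) and each nuclear subunit gene (grey squares, right), by complex, on an axis that is logarithmic above 1 TPM and linear below. Filled circles are mitochondrial genes outside the chromosome 1 copy, diamonds those partly inside and open circles those wholly inside; the open circles lie at or below 3.31 TPM, and the diamonds and filled circles other than mt-Nd6 lie above the nuclear subunits plotted for their complex (for complex I, its 7 core subunits).

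Nuclear genes that maintain, transcribe and process the mitochondrial genome were expressed throughout. Of 70 genes in 5 lists, 67 were matched by symbol and each of the 67 was at 1 TPM or more throughout. Their median level was 35.2 TPM. None was called between libraries at a ratio of 2, against 11.0% of all genes tested, and 15 of the 67 were at 25%, against 27.5%. In all, 26 of the 67 were lowest in replicate 3, against 34.2% of all genes tested.

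Among the 11 transcription genes, Mrpl12, a ribosomal protein reported to bind the mitochondrial RNA polymerase, was highest at 525 ± 33.5 TPM, followed by the topoisomerase gene Top1mt at 72.4 ± 4.04 (SD, n = 3). The termination factor family genes Mterf1a and Mterf1b, whose sequences are similar and whose counts are therefore uncertain, were lowest at 3.42 ± 0.399 and 3.07 ± 0.912. Polrmt and Tfam are given for their roles, after their values were seen. Polrmt, the RNA polymerase itself, had 55.6, 69.5 and 72.7 TPM in replicates 2, 3 and 4 and was called at 25% (ratio 1.32, adjusted p = 4.43e-42, chi-square test). Tfam, which packages the DNA and starts transcription, had 65.8, 56.6 and 55.9 TPM (ratio 1.16) and was not called. Polrmt was thus lowest in replicate 2 and Tfam highest there.

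The 15 replication and maintenance genes were led by Rnaseh1 at 102 ± 4.99 TPM and Lig3 at 76.4 ± 1.74, with Rrm2b at 7.76 ± 0.991 and Tymp at 4.21 ± 0.933 lowest (SD, n = 3). Of 13 matched genes for RNA cleavage and tRNA maturation, Pus1, a pseudouridine synthase, was at 207 ± 8.92 TPM and Elac2, which cuts tRNA 3′ ends, at 161 ± 9.66, against Nsun3 at 10.7 ± 1.44. Trmt61b was the lowest, with 8.46, 11.0 and 9.57 TPM in replicates 2, 3 and 4. The 17 matched genes of mRNA stability, tailing and decay had the highest median of the 5 lists, 65.3 TPM. They ran from Tbrg4 (also called Fastkd4) at 207 ± 14.5 TPM and Ptcd2 at 129 ± 3.83 to Fastkd1 at 19.5 ± 1.35 and Fastkd5 at 16.5 ± 2.46. The 11 rRNA modification genes were led by Rcc1l at 82.5 ± 6.76 TPM and Eral1 at 71.9 ± 2.02, with Nsun4 at 17.5 ± 0.891 and Mettl15 at 9.70 ± 0.997 lowest.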

How the data were processed

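RNA of mouse Treg cells was sequenced in 3 libraries. Per the file headers, the values deposited by the authors are raw counts of fragments per gene, made with featureCounts 1.4.6-p4 on paired, reverse-stranded alignments over exons of GENCODE M13 (strand option 2), with both ends required to align and no option for fragments that align to several places. The build is mm10 per the labels. Aligner settings and read length were not given in the sources used here. One other deposited column, Length, is in bases.

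The members and lists were chosen with earlier results of these data known, and the split by the chromosome 1 copy was made after the counts were seen. TPM was computed as count over deposited length, which covers all annotated exons of a gene. Symbols came from GENCODE M21 (50376 of 50600 matched). Copies were sought with blastn 2.17.0 (word size 20, identity 90% or more) among GENCODE M21 transcripts only, not the genome. Since 1 group leaves no contrast for edgeR's quasi-likelihood test, each gene's rates in the libraries were tested by chi-square on effective library sizes from TMM (edgeR 4.0.16, R 4.3.3), which takes fragments as independent. A lowest value of 0 was replaced by 3 fragments. The test was tried on simulated counts that held counting error and planted changes only. That trial does not show how the test behaves under the further spread between real libraries. Alternatives were DESeq2 1.42.0 size factors, no filter, other pseudocounts and lengths, and each library left out. The common biological coefficient of variation was 11.1%. Intervals cover counting error only. All 37 genes are accounted for, with values per library for mRNAs, rRNAs and tRNAs of 30 or more fragments, and the 2 highest and 2 lowest genes of each nuclear list of RNA and DNA handling.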

Additional observations from a re-analysis of the deposited data

How the results depend on the processing

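No paired analysis was possible because the libraries form 1 group. Of 81 recomputed values, 64 kept their direction or stayed within the set limits, 11 moved and 6 reversed, and the cause was not tested beyond what each setting removes. The share of fragments (0.653%) was 0.387% without mt-Co1, 0.352% without the genes that touch the chromosome 1 copy (added after the data were seen) and 1.71% as a share of TPM, and ran from 0.631% to 0.696% without each replicate. When all 27 members with a fragment were tested, 5 were called at a ratio of 2, against 13.8% of all genes under that setting. At 25% the calls numbered 10, against 24.9%. The members lowest in replicate 3 then numbered 17, for which the share of all genes was not computed. Leaving out each replicate gave 0 to 1 call at 2, against 3.97% to 5.87% of all genes tested. It gave 2 to 4 calls at 25%, against 13.1% to 16.2%, and 14 to 17 members at 1 TPM. The mRNA median minus the nuclear subunit median (-3.98) became 1.69 without mt-Atp8 and mt-Nd4l, 1.78 with 200 bases taken off each length (genes of 300 bases or more), 2.91 without the genes inside the copy and 3.13 per unshared 50-base window. The complex IV minus complex I difference (-9.31) became 2.10 and 2.47 under the last 2 settings, both added after the data were seen. Without each replicate these 2 differences ran from -4.32 to -3.73 and from -9.60 to -9.05, mt-Nd6 minus the other mRNAs from -2.04 to -1.74, the rRNA difference from 0.31 to 0.40, and mRNA minus tRNA from 3.43 to 4.14. The mt-Nd6 difference (-1.86) was -6.02 without mt-Atp8 and mt-Nd4l and -5.54 with the shortened lengths. The mRNA minus tRNA difference could not be computed with shortened lengths, which leave no tRNA. Depth limits the tRNA genes and mt-Nd3, where a few fragments set the value. Copies were sought in annotated transcripts only, so shared windows are lower limits.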
